A study of Caenorhabditis japonica with 3 samples.

Results

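A group of 144 genes of the nematode *Caenorhabditis japonica* had transcripts that were present in the first cleavage embryos, were still present at 60 to 100 minutes after the 4-cell stage and were low in every later library. The oocyte supplies an animal embryo with mRNA before the embryo transcribes its own genome, and this maternal mRNA is later cleared while transcription from the embryo's genome takes over, a change known as the maternal-to-zygotic transition. In *C. elegans*, a relative of this species, some maternal mRNAs are cleared from the somatic cells within the first divisions and others last longer. The 144 genes were selected on their measured levels, so their presence early and their low level later are a description of the choice and were not tested.

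The series measured single whole embryos of *C. japonica*, a species with males and females, by CEL-Seq, which puts a barcode on the polyA RNA of each embryo, pools the embryos and reads the 3′ ends of transcripts. Embryos were cut from adults, washed in bleach, taken at the 4-cell stage and kept at 20 °C until frozen, and all groups shared this label of treatment. The 1- and 2-cell embryos cannot have been taken at the 4-cell stage, so that step does not describe them. The labels name no strain, mutation, drug or sex. The early library held embryos of 1, 2 and 4 cells and embryos at 10 to 130 minutes after the 4-cell stage (16 embryos), the middle library those at 140 to 290 minutes (16 embryos) and the late library those at 300 to 430 minutes (14 embryos), with 1 embryo for each 10 minutes. The 9 windows used here were the 1-, 2- and 4-cell embryos (3 embryos), 10 to 50 (5), 60 to 100 (5), 110 to 130 (3), 140 to 180 (5), 190 to 230 (5), 240 to 290 (6), 300 to 360 (7) and 370 to 430 minutes (7). Neighbouring times stood in as replicates, so the spread within a window included age.

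Members were chosen among the 3392 genes with 1 listed 3′ end peak, of 3955 genes in all. Levels for the choice were reads of a gene per 1000000 reads of all listed genes (CPM), with the reads of a window's embryos added together. A member had at least 100 CPM in the 1-, 2- and 4-cell embryos and at 60 to 100 minutes, differed less than 3-fold between those windows, and had at most 0.25 of its 60 to 100 minute level in the middle library and in the late library. Of 1141 single-peak genes with 100 CPM in both early windows, 1060 also met the limit on the early difference. These 1060 split by the same limit of 0.25 into 719 genes above it in both later libraries, 181 above it in the middle library only, 16 above it in the late library only, and the 144 members. Without the deep 70 minute embryo 119 genes met the rule, of which 94 were among the 144.

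The word maternal could be checked only by presence at the start. All 144 members had reads in the 1-cell embryo, and 143 had reads in each of the 1-, 2- and 4-cell embryos. The files give identifiers and no gene names, so the lists of maternal, germ plasm, eggshell and early zygotic genes could not be read, and no role is given for a member. Members had their peak at a median location of 1896.5 within the gene (quartiles 835 and 5070), against 2724.5 for all single-peak genes and 2009 for the 719 genes kept in both later libraries. The origin and direction of that location are not stated in the sources. The listed peak held a median of 95.5% of a member's reads (range 44.7 to 99.6%), against 94.1% in all single-peak genes.

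The depth, counted in listed genes, lay between 1719 and 454691 reads an embryo (median 61827), and 14 shallow embryos had less than 0.25 of the median. Depth was uneven within windows: the 70 minute embryo gave 53.6% of the reads at 60 to 100 minutes, the 1-cell embryo 60.3% of those in the 1-, 2- and 4-cell embryos, and the 140 and 170 minute embryos together 92.1% of those at 140 to 180 minutes. The 110 to 130 minute embryos had 24042 reads in all, so that 1 read there was worth 41.6 CPM. The early-to-middle and middle-to-late steps in time were also steps between libraries, and these cannot be told apart. Barcode number ascended with time in the early library and descended in the middle one, so barcode and time cannot be told apart within those libraries either.

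As a group, the members held between 5.44% and 7.55% of an embryo's listed reads up to 90 minutes and smaller shares from 100 minutes on. The 1-, 2- and 4-cell embryos gave 5.44%, 7.14% and 6.41% of their reads to members. The shares at 10, 20, 30, 40 and 50 minutes were 6.46%, 6.27%, 6.62%, 6.56% and 6.85%. At 60, 70, 80, 90 and 100 minutes they were 7.48%, 7.55%, 6.24%, 5.63% and 4.56%. Within this last window the 60 and 70 minute embryos were the highest of the whole course and the 100 minute embryo was below every earlier one. The choice set later levels against the pooled level of this window, in which the 70 minute embryo gave 53.6% of reads. It thus favoured genes that were high in that embryo. A share is relative to the other listed genes of the same embryo, so a smaller share can stand for fewer copies or for more RNA of other genes, and in polyA RNA a lost transcript and a lost polyA tail cannot be told apart.

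The 110, 120 and 130 minute embryos, which the choice of members did not use, had 4.55%, 4.88% and 4.82% of reads in members. All of them were below the lowest of the 10 to 50 minute embryos, also not used in the choice, so that these groups did not overlap. The mean share was 4.75 ± 0.18% at 110 to 130 minutes (SD, n = 3) and 6.55 ± 0.21% at 10 to 50 minutes (SD, n = 5). Counting error alone gave the 110 minute embryo, with 1890 reads, an exact 95% binomial interval (Clopper-Pearson) of 3.66 to 5.59%. Reads carry no molecular identifiers in the sources used here, so all such intervals cover counting error only.

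The middle library began with a share of 2.19% at 140 minutes and 1.48% at 150 minutes. The 160, 170 and 180 minute embryos had 1.22%, 1.35% and 2.08%, the first and last of them from shallow embryos. From 190 to 230 minutes the shares ran from 0.657% to 1.05% with a median of 0.949%, and from 240 to 290 minutes from 0.543% to 0.913% with a median of 0.600%. The lowest embryo at 140 to 180 minutes was thus above all later middle embryos. In the late library the range was 0.402% to 1.04% with a median of 0.467%, and its highest embryo, at 390 minutes, had only 2305 reads.

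**Figure D1:**
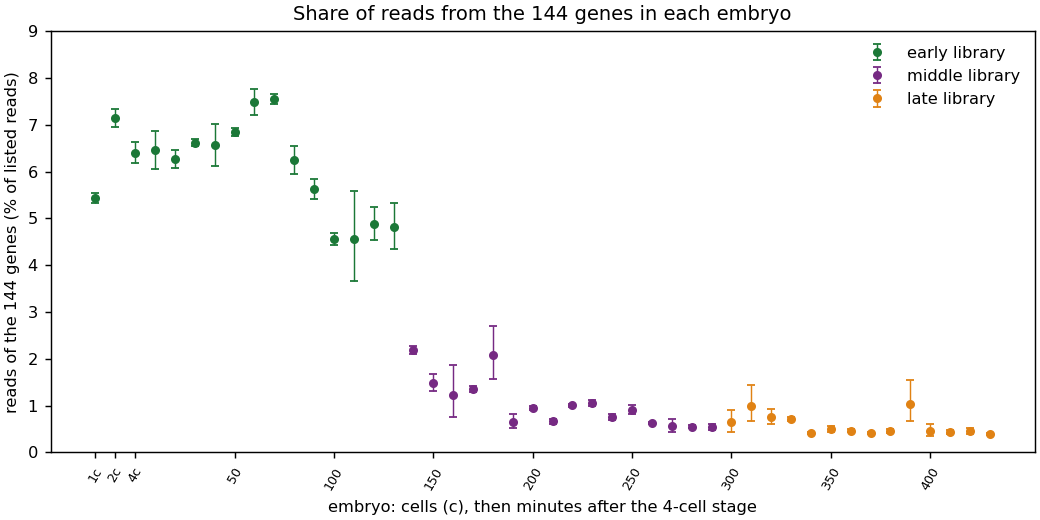
Share of listed reads that came from the 144 genes in each of the 46 embryos, in order of age, with exact 95% binomial intervals as bars (counting error only) and colours for the 3 libraries. Shares lay between 4.55% and 7.55% in the early library, between 0.543% and 2.19% in the middle library and between 0.402% and 1.04% in the late library.

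Over single members, the typical level was similar over the first 3 windows and lower in each window after them. The median member had 248 CPM in the 1-, 2- and 4-cell embryos, 284 CPM at 10 to 50 minutes, 291 CPM at 60 to 100 minutes and 187 CPM at 110 to 130 minutes. In the middle library it had 50.2 CPM at 140 to 180 minutes, 37.7 CPM at 190 to 230 minutes and 25.5 CPM at 240 to 290 minutes. The late windows had medians of 19.0 and 14.9 CPM. The choice fixed the early and the summed later levels but not the order of the windows within a library, and in each of the middle and late libraries the later window had the lower median. By its reads, the summed middle level rested mainly on the embryos from 190 minutes on, so the choice favours this order in the middle library.

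The limit of 0.25 applied to each later library as a whole, so single windows could lie above it. At 140 to 180 minutes the median member stood at 0.187 of its 60 to 100 minute level, with 46 members above 0.25 and 6 above 0.5. At 190 to 230 minutes the median was 0.142 and 13 members were above 0.25, and at 240 to 290 minutes it was 0.0871 with 8 members above 0.25. By 370 to 430 minutes the median was 0.0601, 80 members were still above 0.05 of their 60 to 100 minute level, and 9 had no read. Only 2 members had no read in any late embryo, so most members were low rather than undetected at these depths.

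**Figure D2:**
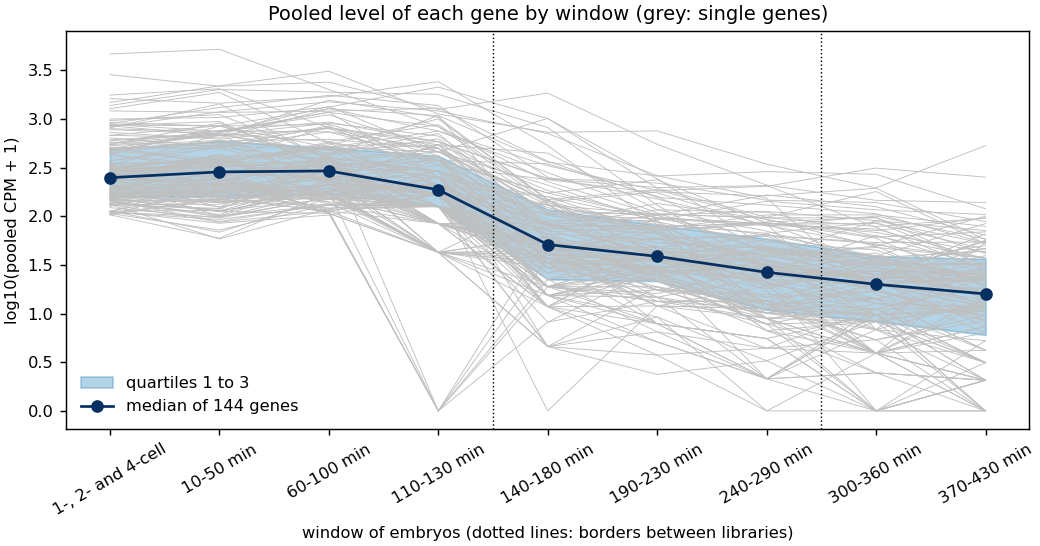
Pooled level of each of the 144 genes (grey lines) in the 9 windows, on a scale of log10(CPM + 1), with the median (dark line) and the quartiles (blue band). The median was between 187 and 291 CPM in the 4 early windows and between 14.9 and 50.2 CPM in the 5 later ones. Lines that touch 0 at 110 to 130 minutes are the 5 genes without a read in those 3 shallow embryos.

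Members did not follow a single course within the early library. Between 60 to 100 minutes and the 1-, 2- and 4-cell embryos, the ratio of levels had a median of 1.15 and a range of 0.353 to 2.98, within the 3-fold allowed by the choice. It was above 1 for 88 members and below 1 for 56. These subsets were defined by pooled values that the choice used, so their difference in those windows was not tested, while the 10 to 50 and 110 to 130 minute embryos were used neither for the choice nor for the split. In time these embryos lie next to the windows of the split, so their levels are not independent of it.

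The 88 members held shares of 2.96%, 3.70% and 3.64% at 110, 120 and 130 minutes, against 3.43%, 3.03%, 3.52%, 3.07% and 3.59% at 10 to 50 minutes, and the ranges overlapped. The 56 members held 1.59%, 1.18% and 1.18% at 110 to 130 minutes, against 3.03%, 3.24%, 3.10%, 3.5% and 3.26% at 10 to 50 minutes. For the 56, every later embryo was below every earlier one. Per gene, the ratio of the 110 to 130 minute level to the 10 to 50 minute level had a median of 0.971 (quartiles 0.668 and 1.49) among the 88 and 0.389 (quartiles 0.176 and 0.746) among the 56.

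Within the 60 to 100 minute window the 56 members had successively lower shares of 2.48%, 2.15%, 1.70%, 1.23% and 1.13%, and the 88 had 5.01%, 5.4%, 4.55%, 4.39% and 3.44%. Both subsets were low in the middle library. At 140 to 180 minutes the 88 together held 1.26% of reads and the 56 held 0.453%. By 370 to 430 minutes the 88 held 0.306% and the 56 held 0.115%.

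**Figure D3:**
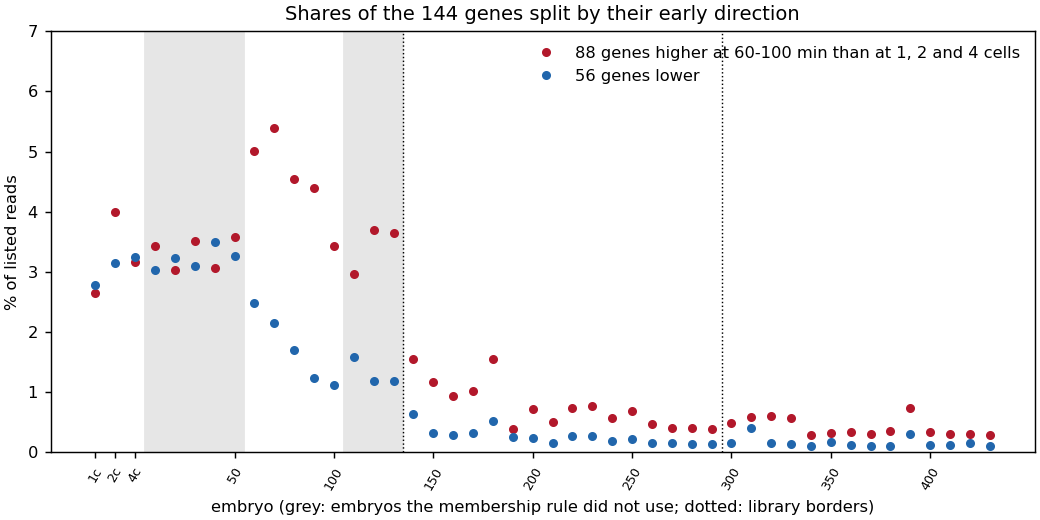
Share of listed reads per embryo for the 88 genes with a higher pooled level at 60 to 100 minutes than in the 1-, 2- and 4-cell embryos (red) and for the 56 with a lower one (blue), with grey bands over the 10 to 50 and 110 to 130 minute embryos that neither the choice nor the split used, and dotted lines at the library borders. The 56 genes lay between 1.18% and 1.59% in the second band and between 3.03% and 3.5% in the first, while the ranges of the 88 genes overlapped.

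Whether members already differed within the early library was tested in the 8 early embryos that the choice had not used, with edgeR's quasi-likelihood test of 110 to 130 minutes against 10 to 50 minutes over the whole table. The depth at 110 to 130 minutes left 373 genes after the filter on low counts, and 29 of the 144 members were among them. A gene could pass this filter through its reads at 10 to 50 minutes alone, which favours genes that are lower later, so counts and medians over the 29 describe those that passed and are no support for a fall of the 144. Of the 29, 6 fell and none rose at a Benjamini-Hochberg adjusted p under 0.05. Over all genes tested, 7.24% were called lower (27 genes) and 4.29% higher (16 genes). The median log2 fold change was -0.63 over the members tested and -0.06 over all genes tested. With DESeq2's size factors these medians were -0.74 and -0.17 and the same 6 members fell. Of the 6, 3 had 3 reads or fewer at 110 to 130 minutes. At an unadjusted p under 0.05, 9 members were lower and 0 higher in edgeR, and DESeq2 and limma also called 0 members higher.

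All 6 members that fell were among the 56 with a lower level at 60 to 100 minutes. That window lies between the tested ones in time, so the split and the calls are not independent. The same split over other genes was not made. Their log2 fold changes lay between -4.89 and -2.0, with adjusted p between 0.0087 and 0.0484 in edgeR. CJA23904, the member with the highest early level, was one of them, with a log2 fold change of -2.77 ± 0.59 (SE) and an adjusted p of 0.0105 in edgeR. Without the 120 minute embryo, the number of members that fell was 3. In a fit of all 16 early embryos, 126 members were tested for the same contrast, and 6 fell and 0 rose in edgeR. Over all 1766 genes in that fit 93 fell and 36 rose, so the share of members that fell was not above that over all genes.

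Among the members that passed the filter, CJA15604 had the largest fall. It had 529, 0 and 0 CPM at 110, 120 and 130 minutes, which was 1 read in all, against 771, 933, 1563, 1495 and 1386 CPM at 10, 20, 30, 40 and 50 minutes, which were 1242 reads. The later embryos were all below the earlier ones. Pooled, its level at 110 to 130 minutes was 0.0292 of that at 10 to 50 minutes, with an exact 95% counting interval of 0.000739 to 0.163. The edgeR log2 fold change was -4.89 ± 0.97 (SE, adjusted p = 0.0087), and without the 120 minute embryo it was -3.59 with an adjusted p of 0.0639 in edgeR. Without the 110 minute embryo, which held its only later read, the fitted value was -10.37 (adjusted p = 0.00707 in edgeR) against no read at all, so that value is no measure of size. With no filter on low counts 1 other called member, CJA16939, had a larger fitted fall (-8.88, adjusted p = 0.00229 in edgeR), also with no read at 110 to 130 minutes. Members that missed the threshold could have larger fitted falls too, such as CJA01725 at -7.62 (adjusted p = 0.054 in edgeR), which had no read there.

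CJA08362 had the next largest fall among those that passed the filter. Its levels were 0, 68.0 and 134 CPM at 110, 120 and 130 minutes, which were 2 reads, against 281, 1484, 1442, 582 and 778 CPM at 10 to 50 minutes, which were 965 reads. These groups did not overlap either. The pooled ratio was 0.0752 (exact 95% counting interval 0.00909 to 0.272), and the edgeR log2 fold change was -3.64 ± 0.91 (SE, adjusted p = 0.0232). This call did not pass the threshold when any of the 110, 120 or 130 minute embryos was left out, with adjusted p between 0.054 and 0.107 in edgeR.

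With no filter on low counts, which let all 144 members into the fit, 11 members fell and none rose at the same threshold in edgeR, with 35 lower and 1 higher at an unadjusted p under 0.05. In that fit 3.35% of 3730 genes were called lower and 2.2% higher. Its scale was shifted: the median log2 fold change was -0.88 over all genes and -0.80 over members, so the typical member did not stand below the typical gene there. The median was -0.48 over the 719 genes kept in both later libraries and -0.41 over the 181 kept in the middle library only. The median of members lay below both. With the filter these medians were 0.07 and -0.09, against -0.63 over members. Scaling by library size alone moved the median over all genes to -0.52, gave 104 genes called higher and 62 lower in place of 82 higher and 125 lower, and left 7 members called lower. All 11 were again among the 56, and 8 of them had 3 reads or fewer at 110 to 130 minutes. Of the 719 genes kept in both later libraries, 13 were called lower and 5 higher, and of the 181 kept in the middle library only, 1 was called higher and 0 lower, with 4 higher and 11 lower at an unadjusted p under 0.05 in edgeR. The other 133 members did not pass the threshold. Of these, 69 had 5 reads or more at 110 to 130 minutes, where the median over all members was 4.5 reads, and a p that misses the threshold does not show that their levels were alike.

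Some members also fell within the middle library. A slope of level on time, in steps of 10 minutes over the 16 embryos at 140 to 290 minutes, was fitted with edgeR to all genes. The choice used the sum over these embryos and not their order. After the filter on low counts 1797 genes were tested, and of 29 members among them, those with the most reads left, 11 fell with time and none rose. A member could pass this filter through its reads in the earlier of these embryos alone, which can favour members that fall. Counts and medians over the 29 therefore describe those that passed and are no support for a fall of all members. At an unadjusted p under 0.05, 14 fell and 0 rose in edgeR, and DESeq2 and limma also called 0 rising members. Over all genes tested, 4.06% fell and 5.34% rose. The median slope was -0.08 log2 per 10 minutes over members tested and 0.01 over all genes tested.

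The 11 falling members had slopes between -0.42 and -0.14 log2 per 10 minutes. Of them, 10 were among the 88 members that were higher at 60 to 100 minutes than in the first embryos. How many of the members tested belonged to the 88 was not counted. Of the 6 members that fell within the early library, only 1 had enough reads to enter this fit, so the overlap of the filtered calls cannot be read. The 11 had 194 reads or more over the library. In the slope fit with no filter on low counts, 29 of the 39 falling members were among the 88. The other 10 had a lower level at 60 to 100 minutes than in the first embryos.

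Among the members that passed the filter CJA08747 had the steepest slope, and it also had the steepest called slope of the 144 with no filter. It had 629, 1124, 582, 940 and 0 CPM at 140, 150, 160, 170 and 180 minutes, then 82.1, 232, 129, 83 and 38.2 CPM at 190 to 230 minutes. From 240 to 290 minutes it had 60.6, 45.1, 19.8, 0, 22.4 and 47.1 CPM. The 0 at 180 minutes came from a shallow embryo, and the other embryos of that window were above all later ones. The slope was -0.42 ± 0.05 log2 per 10 minutes (SE, adjusted p = 9.52e-07 in edgeR). In the early library the same gene had between 789 and 2172 CPM with a median of 1603 CPM, and in the late library between 0 and 25 CPM with a median of 2.90 CPM.

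CJA00782 had the second steepest slope among those that passed the filter, and with no filter 4 called members, CJA08747 included, had a steeper one. Its levels were 1154, 843, 0, 905 and 1892 CPM at 140 to 180 minutes and 164, 382, 129, 234 and 25.5 CPM at 190 to 230 minutes. At 240 to 290 minutes they were 60.6, 90.2, 30.8, 0, 76.3 and 15.7 CPM. Apart from the 160 minute embryo, which had no read of it, the first window lay above the others. The slope was -0.37 ± 0.05 log2 per 10 minutes (SE, adjusted p = 7.52e-06 in edgeR). At 110, 120 and 130 minutes the gene had 2646, 1020 and 4165 CPM, against 1893, 1034, 999, 997 and 1038 CPM at 10 to 50 minutes in that order, and the difference did not pass the test (edgeR log2 fold change 1.01 ± 0.53 SE, adjusted p = 0.231).

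With no filter on low counts, 39 of the 144 members fell within the middle library and none rose in edgeR. At an unadjusted p under 0.05, 49 fell and 0 rose in edgeR, and 115 had a slope below 0. The 39 had between 5 and 1095 reads over the library, so some of these calls rest on few reads. In that fit 4.22% of 3937 genes fell and 9.42% rose, and the median slope was 0.01 over all genes. The choice favours falling slopes here too, so the counts of members describe them and do not test them as a group. Of the 719 genes kept in both later libraries 11 fell and 12 rose, and of the 181 kept in the middle library only 30 fell and 0 rose, with 61 falling and 0 rising at an unadjusted p under 0.05 in edgeR. Without the 140 and 150 minute embryos, an alternative chosen after the data were seen, 15 members fell and 0 rose. Over all 3936 genes in that fit 82 fell and 291 rose. Of the 719 genes 6 fell and 8 rose there, and of the 181 genes 20 fell and 0 rose. The 2 sets of calls, 11 members in the early embryos and 39 in the middle library, had 1 member in common. This overlap was not tested or set beside that over all genes, so it does not show separate groups of members. Of the 11, 8 had 3 reads or fewer at 110 to 130 minutes.

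**Figure D4:**
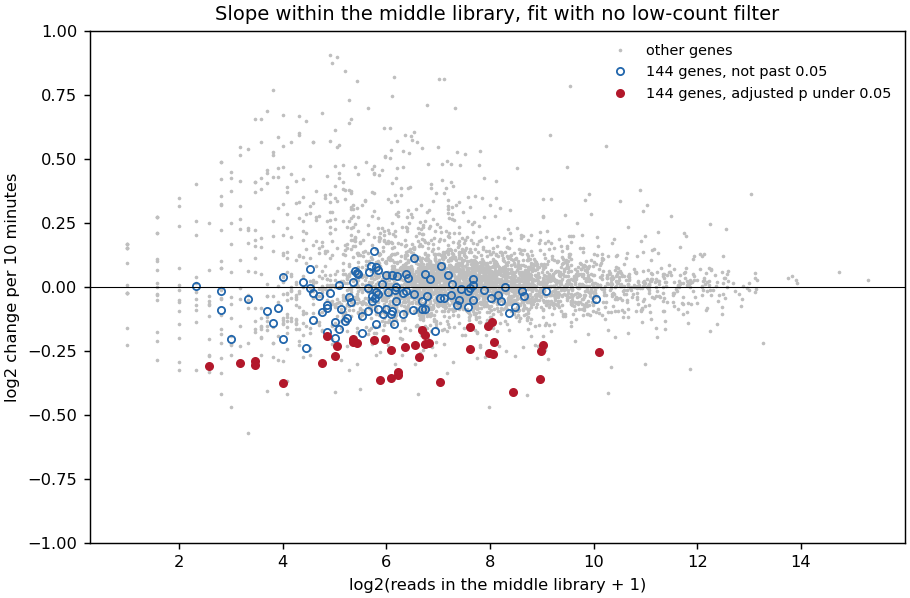
Slope of each gene over the 16 middle embryos (vertical axis, log2 change per 10 minutes, from the edgeR fit with no low-count filter) against its reads in the middle library (horizontal axis, log2 of reads + 1), with other genes in grey, the 39 members past an adjusted p of 0.05 as filled red points and the other members as open blue points. All 39 lie below 0, and the called slopes run from -0.41 to -0.14.

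The 6 members with the highest early level held 20.8% of the members' reads in the early library. They differed in the age from which they were low. CJA23904 had 4748, 2306 and 7946 CPM at 1, 2 and 4 cells and 1543, 6135, 4615, 5981 and 5683 CPM at 10 to 50 minutes. At 60, 70, 80, 90 and 100 minutes it had 7779, 1773, 3282, 682 and 889 CPM, and at 110, 120 and 130 minutes 1058, 1088 and 269 CPM. The embryos from 90 minutes on were below every embryo up to 70 minutes. Its middle levels ran from 0 to 169 CPM with a median of 15.7 CPM, and 9 of 14 late embryos had no read of it.

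CJA14459 kept the largest fraction of its level at 140 to 180 minutes. At 140 to 180 minutes it had 3147, 1181, 582, 884 and 1892 CPM, and its pooled level there was 0.771 of that at 60 to 100 minutes, the highest such ratio of all members. That value rests on the 140 minute embryo: without it the ratio was 0.389, in place 16 among the members. Its early levels ran from 529 to 5377 CPM with a median of 1801 CPM, so that the 140 to 180 minute embryos overlapped the early ones. At 240 to 290 minutes it had 340, 383, 211, 235, 162 and 47.1 CPM, all below the earlier window. Its slope in the middle library was -0.26 ± 0.04 log2 per 10 minutes (SE, adjusted p = 5e-05 in edgeR).

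CJA18256 kept the highest late level of the 6. It had between 403 and 4795 CPM in the early library (median 1369 CPM), between 0 and 1504 CPM in the middle library (median 323 CPM) and between 117 and 609 CPM in the late library (median 288 CPM), with reads in all 14 late embryos. Its middle slope did not pass the test (-0.05 ± 0.05 log2 per 10 minutes, SE, adjusted p = 0.636 in edgeR). The pooled late level was 0.698 of the middle level (exact 95% counting interval 0.631 to 0.771).

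CJA10346 and CJA06985 were close in level but not in their late remainder. CJA10346 had between 529 and 4702 CPM in the early library (median 1473 CPM), between 0 and 795 CPM in the middle library (median 48.6 CPM) and between 0 and 189 CPM in the late library (median 6.02 CPM). CJA06985 had between 0 and 2029 CPM early (median 1279 CPM), between 0 and 450 CPM in the middle library (median 105 CPM) and between 0 and 434 CPM late (median 32.8 CPM). Both fell within the middle library, with slopes of -0.27 ± 0.05 (adjusted p = 0.000741) and -0.16 ± 0.04 log2 per 10 minutes (adjusted p = 0.0133, SE, edgeR).

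**Figure D5:**
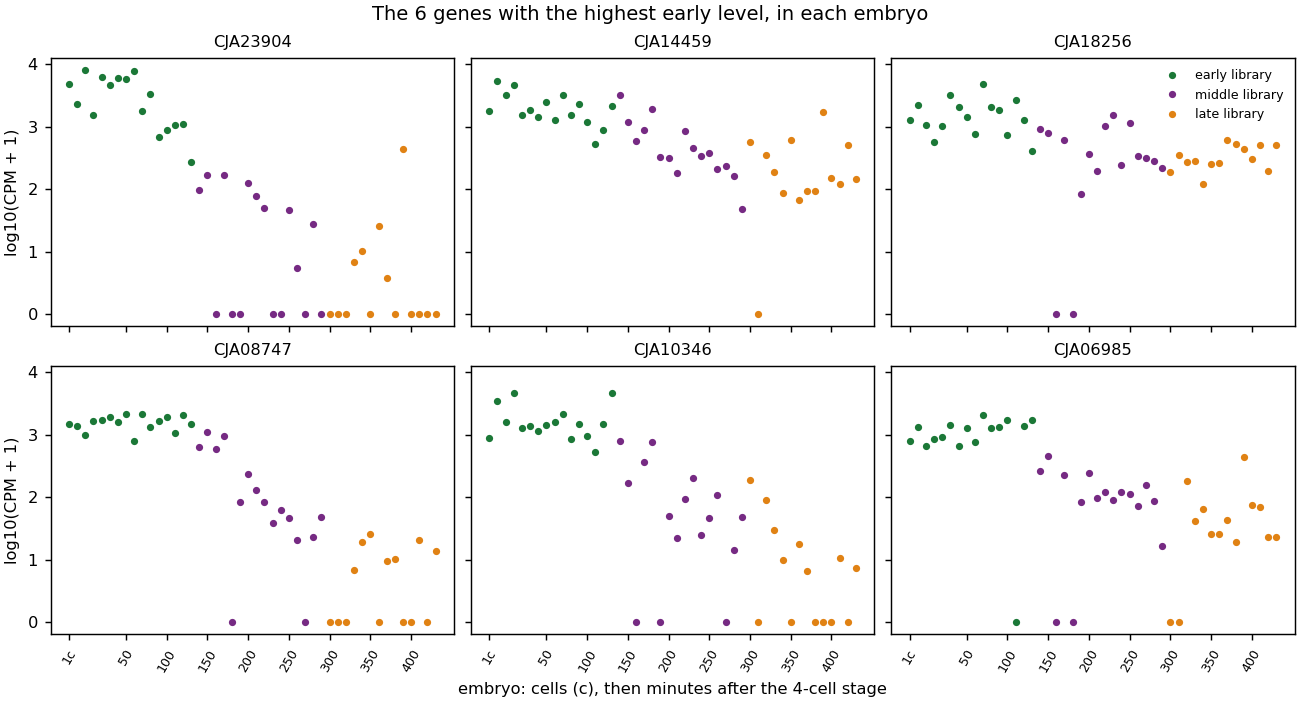
Level of the 6 members with the highest early level in each of the 46 embryos, on a scale of log10(CPM + 1), with colours for the 3 libraries and points at 0 for embryos without a read. CJA23904 is lower from 90 minutes on, inside the early library, and CJA14459 is still at 3147 CPM at 140 minutes. The late 434 CPM points of CJA23904 and CJA06985 at 390 minutes are 1 read each.

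The pooled late level was lower than the pooled middle level for most members. It was below it with an exact 95% counting interval under 1 for 84 members, the interval held 1 for 51, and it lay above 1 for 9. Over all 3950 genes with reads there, the interval lay below 1 for 42.6% and above 1 for 29.9%. The median ratio of late to middle was 0.578 over members and 0.866 over all genes. It was 0.813 over the 719 genes kept in both later libraries, of which 407 had an interval below 1 and 152 above it. An interval below 1 was thus about as common in members (58.3%) as in the 719 (56.6%). Over the 181 kept in the middle library only, which are lower late by definition, the median was 0.394, with 172 intervals below 1 and 0 above. The choice used both of these pooled levels, so the counts are a description of the members and no test. These intervals treat each pooled library as a single sample, since embryos of the 2 libraries share no window, and the library border and the time cannot be told apart.

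A pair of members, picked after their values were seen, had several times more late than middle reads. CJA38116 had 54 late reads and 10 middle reads, a ratio of levels of 6.28 (exact 95% counting interval 3.17 to 13.8). Its late reads lay mainly at the end of the course, with 41 of them at 410 to 430 minutes, where it had 69.0, 86.8 and 95.9 CPM. CJA09207 had 30 late reads and 6 middle reads, a ratio of 5.82 (2.38 to 17.1), and 20 of the late reads were at 410 to 430 minutes. Both were still below their early level: CJA38116 had a pooled 33.3 CPM in the late library, against 177 CPM at 60 to 100 minutes, and CJA09207 had 18.5 CPM, against 133 CPM. For the other 7 members with an interval above 1 the ratio was between 1.30 and 1.95, and CJA08362 was among them at 1.45 (1.11 to 1.90).

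The border of the group was not a gap in the data. Just inside the limit of 0.25, CJA02247 had a higher later level of 0.248 of its 60 to 100 minute level, from 71 reads in the middle library and 73 at 60 to 100 minutes. CJA01725 stood at 0.2497, from 50 and 51 reads. Just outside, CJA01120 stood at 0.252, from 57 reads in the late library and 67 at 60 to 100 minutes, and CJA34488 at 0.253, from 113 reads in the middle library and 114 at 60 to 100 minutes.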

How the data were processed

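Gene totals were analysed for 46 single embryos in 3 pooled CEL-Seq libraries. The values are counts: per the file headers, the authors listed reads for each 3′ end peak and a total for each gene, with no normalization. CASAVA 1.8, Bowtie2 2.1.0 and HTSeq 0.5.4p3 are named in the submitters' processing notes, while genome build, annotation and peak caller were not given in the sources used here. This table lists 3955 genes and 4619 peaks, a part of each library, so its totals are not sequencing depth. Columns were matched to embryos through the deposited sheet. The 330 and 340 minute columns carry suffixes that the sources do not explain, and the labels name extra embryos at these times, so which embryos they hold is uncertain.

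Pooled CPM, shares and exact 95% intervals were computed in Python 3.11.15 with pandas 2.3.3 and scipy 1.17.1. Tests on gene totals used edgeR 4.0.16 under R 4.3.3 (quasi-likelihood test, filterByExpr, TMM, Benjamini-Hochberg over all genes tested, two-sided, threshold 0.05). The fitting was tested on simulated data, with changes placed only in the genes with the most reads and the same spread for all genes. That test therefore does not cover calls that rest on few reads. Alternatives were other scalings, no filter, DESeq2 1.42.0, limma 3.58.1 on log2 CPM with a prior count of 2, other windows and embryos left out. The members and lists were chosen with earlier results of these data known. Genes named are the 6 members with the highest early level, the 2 on each side of the limit of 0.25, and up to 2 members with the largest fall or rise in each test.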

Additional observations from a re-analysis of the deposited data

Results flagged for a closer look

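Of 37 groups of embryos checked, 7 held an embryo far from the others of its window by Dixon's criterion, and chance gives about 1 in 20 groups. The share of reads in members was 1.04% at 390 minutes, against a median of 0.453% over the 7 embryos at 370 to 430 minutes, in an embryo with 2305 reads. In the 10 minute embryo CJA10346 had 4628 CPM (median of the 5 embryos at 10 to 50 minutes 1366 CPM), CJA34488 had 421 CPM (median 98.8 CPM), CJA00782 had 1893 CPM (median 1034 CPM) and CJA09207 had 0 CPM (median 84.0 CPM). That embryo had 14260 reads, below 0.25 of the median over all embryos. In the 60 minute embryo CJA08362 had 1523 CPM (median of the 5 embryos at 60 to 100 minutes 377 CPM) and CJA38116 had 544 CPM (median 176 CPM). The part of depth in these values was not tested.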

How the results depend on the processing

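The number of members, 144, became 384 with a limit of 0.5, 57 with a limit of an eighth and 72 with a minimum of 200 CPM, by construction of those limits. It ranged from 119 to 164 when each of the 38 embryos the rule used was left out in turn, the 30 middle and late ones among them added after the data were seen. Without the 70 minute embryo 119 genes met the rule, of which 94 were among the 144, and with each embryo given equal weight 126 did, of which 93 were shared. For 110 to 130 against 10 to 50 minutes, 43 genes were called by edgeR, 68 by DESeq2, 207 with no low-count filter and 129 in a fit of all 16 early embryos, and 20 to 70 with 1 embryo left out (70 without the 10, 25 without the 30, 20 without the 110, 23 without the 120 and 21 without the 130 minute embryo). Members called there numbered 6, and 11 with no filter, with ranges of 3 to 7 and 3 to 14 when 1 embryo was left out (3 without the 120 minute embryo with the filter, and with no filter 7 without the 20 or the 40, 6 without the 120 and 3 without the 130 minute embryo), and 7 with no filter and scaling by library size alone. With all 16 early embryos fitted, 6 of 126 members tested were called lower, beside 93 of 1766 genes. CJA08362 passed the threshold neither with any 110 to 130 minute embryo left out nor with all 16 early embryos fitted (adjusted p = 0.0532 in edgeR). For the middle slope, 169 genes were called by edgeR, 93 by limma and 537 with no filter. Members called numbered 11 of 29 tested, with 4 of 29 by limma and 39 of 144 with no filter. With no filter and without the 140 and 150 minute embryos 15 of 144 fell, beside 82 of 3936 genes. When 240 to 290 was compared with 140 to 180 minutes, 5 of 11 members tested fell, beside 46 of 1253 genes. The cause of these differences was not tested. None of the 4 genes named from the tests changed direction under the alternatives run, and in each of them 0 members were called higher or rising. Over all genes the balance of early calls did turn: 16 higher and 27 lower became 13 higher and 10 lower without the 120 minute embryo, and with no filter 82 higher and 125 lower became 104 higher and 62 lower with library size alone. In that early comparison the median of members lay below that of all genes with the filter and above it without. It lay below the medians of the 719 and the 181 genes with and without the filter. No paired analysis was possible because each time has 1 embryo and the windows share no replicate numbers with a common source. Depth is one limit of the 110 to 130 minute comparison, with 24042 reads in 3 embryos.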
